A study of Mus musculus with 4 samples.

Results

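The centromere protein (CENP) genes *Cenpa*, *Cenpb*, *Cenpc1*, *Cenpe*, *Cenpf*, *Cenph*, *Cenpi*, *Cenpk*, *Cenpn* and *Cenpt* were followed in RNA-seq of fractionated YUMM1.7 cells. These 10 genes, of 16537 in the table, were picked by symbol for their transcript levels in the 2 fractions, with *Cenpb* picked as a transcript enriched in protrusions and *Cenpf* and *Cenpe* as cell cycle-driven contrasts. Their fraction differences are therefore described below and not tested. YUMM1.7 cells come from a genetically engineered mouse melanoma, are labelled wild type here and were untreated apart from fractionation, and all 4 libraries share that background. Cells were plated overnight on membranes whose 1-µm pores, coated with fibronectin on the underside, admit protrusions but not cell bodies. Cell bodies were scraped from the top and protrusions lysed from the cleaned membrane, giving 2 cell body and 2 protrusion libraries. Each replicate pooled 6 inserts, so a value is an average over many cells of 1 line.

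Centromere proteins build the platform on which each chromosome attaches to the mitotic spindle. CENP-A replaces histone H3 in centromeric nucleosomes, CENP-C and the constitutive network of CENP-H, CENP-I, CENP-K, CENP-N and CENP-T read and bridge that chromatin, and CENP-E and CENP-F join the outer kinetochore in mitosis, where CENP-E works as a kinesin motor and CENP-F as a large coiled-coil protein. CENP-B stands apart, since it descends from a pogo-like transposase and binds a sequence motif in centromeric satellite DNA. Many kinetochore transcripts, those of *Cenpe* and *Cenpf* among them, rise towards G2 and mitosis. Transcripts found in protrusions of migrating cells often carry stretches rich in guanine and adenine, the purines, so the longest unbroken purine run of each coding sequence is shown first.

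In the GENCODE transcripts of GRCm38, *Cenpb* was the one single-exon gene of the 10, and its coding sequence held a purine run of 79 bases (33 A and 46 G). The run lay at coding bases 1270 to 1348, on the minus strand at chr2:131178529-131178607. Read in frame, its complete codons are all codons for glutamate or glycine. Whether it does more than encode these residues was not tested. By this measure *Cenpb* had rank 3 among 10538 coding genes tested, whose median run was 12 bases. In the other 9 members the longest coding run was 9 to 20 bases. In the 3′ UTR, where the elements of known protrusion transcripts often lie, *Cenpb* did not stand out: its longest run was 12 bases, as in *Cenpa*, and the other 8 members had 6 to 13 bases. The runs of *Cenpb*, *Cenpf*, *Cenpe* and *Cenpa* are shown 5′ to 3′ because these genes span the range of fraction differences, with the purine run in capitals between 12 flanking coding bases on each side. That of *Cenpf* lay on the minus strand at chr1:189652521-189652540, that of *Cenpe* on the plus strand at chr3:135247008-135247026, and that of *Cenpa* on the plus strand at chr5:30667058-30667067.
Cenpb: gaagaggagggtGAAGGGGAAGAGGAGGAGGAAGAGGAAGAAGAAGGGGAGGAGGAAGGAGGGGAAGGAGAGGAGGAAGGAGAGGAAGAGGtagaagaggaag
Cenpf: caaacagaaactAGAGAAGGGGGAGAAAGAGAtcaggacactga
Cenpe: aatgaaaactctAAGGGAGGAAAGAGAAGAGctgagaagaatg
Cenpa: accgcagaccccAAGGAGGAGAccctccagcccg

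A coding run of at least 40 bases, a length chosen after the data were seen, occurred in 64 tested genes, 0.607% of the coding genes tested. Without *Cenpb*, their median log2 ratio of protrusions to cell bodies was -0.02, against -0.05 for all coding genes tested. Of the 64, *Cenpb* included, 6 (9.38%) were higher and 1 (1.56%) was lower in protrusions (limma, Benjamini-Hochberg adjusted p under 0.05), where 3.11% of all coding genes tested were higher and 3.65% were lower. The medians were thus close. *Cenpb*, picked as enriched in protrusions, was 1 of the 6, so nothing is read from the balance of calls. Median GC content was 52.4% in the 64 and 49.8% over all coding genes tested, and its part in the calls was not tested. A run of 79 bases or more was found in 3 genes. Of 261 single-exon coding genes tested, 7 were higher and 6 were lower, with a median log2 fold change of 0.01.

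The libraries held 25854896 to 30994908 reads assigned to genes and 14784 to 15123 detected genes. One library stood apart: 12 hepatocyte genes, which a melanoma culture should not express, summed to 63.8 TPM in protrusions replicate 1, while the sum in each remaining library was 3.76 TPM or less. TPM, the abundance unit of the table, gives each gene's portion of its own library after division by length and scaling to a common sum, so amounts per cell are not measured, and less RNA per protrusion cannot be told apart from fewer protrusions. Of 9 melanocyte markers, 4 had values here. *Mitf* was at 5.12 to 6.17 TPM and *S100b* at 2.55 to 5.86 TPM, while *Pmel* and *Tyr* stayed below 1 TPM in every library. Leukocyte markers were at or near 0 apart from *Cd68*, which was at 2.09 to 3.93 TPM. Of 4 control transcripts held to be uniformly distributed, *Arpc3* had a log2 fold change of -0.08, *Ywhaz* of 0.11, *Ppia* of 0.16 and *Rhoa* of 0.27, and limma called none of them with or without the replicate block.

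All 10 members were well covered, with 632 to 22769 reads in a library, and all 10 passed the filter of a mean of at least 1 TPM that left 11400 genes for fitting. *Cenpb*, which lies on the minus strand of chromosome 2 at chr2:131177289-131180012 (mm10), was at 192 and 115 TPM in the 2 cell body libraries and at 477 and 491 TPM in the 2 protrusion libraries. Both protrusion values lay far above both cell body values. The means were 153 ± 54.5 TPM in cell bodies and 484 ± 10.1 TPM in protrusions (SD, n = 2). The log2 fold change was 1.7 (SE 0.24), or 3.25-fold on the log2(TPM + 0.5) scale used throughout. *Cenpb* stood 14th from the top among the 11400 genes. It was carried by 8058 and 4054 reads in cell bodies and 17524 and 22769 in protrusions, so counting error is small beside the gap between the cell body libraries.

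*Cenpf* and *Cenpe* went the other way. *Cenpf* (minus strand, chr1:189640614-189688086) was at 91.6 and 117 TPM in cell bodies and at 51.8 and 48.7 TPM in protrusions, and the fractions did not overlap. Its means were 105 ± 18.3 and 50.2 ± 2.23 TPM (SD, n = 2), and its log2 fold change was -1.04 (SE 0.15). *Cenpe* (plus strand, chr3:135212563-135273540) was at 98.3 and 119 TPM in cell bodies and at 65.6 and 54.7 TPM in protrusions, again without overlap. Its means were 109 ± 14.9 and 60.2 ± 7.76 TPM (SD, n = 2), and its log2 fold change was -0.85 (SE 0.15).

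*Cenpc1*, whose product ties centromeric nucleosomes to the outer kinetochore, was at 48.8 and 57.4 TPM in cell bodies and 35.7 and 28.0 TPM in protrusions. Its log2 fold change was -0.73 (SE 0.17), closer to *Cenpe* than to the constitutive network genes. *Cenpa*, which encodes the centromeric histone, was at 109 and 143 TPM in cell bodies and 144 and 153 TPM in protrusions. The lowest protrusion value of *Cenpa* lay just above the highest cell body value, and its log2 fold change was 0.25 (SE 0.16).

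The 5 constitutive network genes differed little between the fractions, with log2 fold changes of -0.39 for *Cenpi*, -0.30 for *Cenpk*, -0.13 for *Cenph*, -0.09 for *Cenpt* and 0.00 for *Cenpn*. *Cenpi* was at 53.0 and 60.8 TPM in cell bodies and 43.7 and 42.7 TPM in protrusions, and *Cenpk* at 27.2 and 26.8 against 22.9 and 20.9 TPM. In both, every protrusion value lay below every cell body value. *Cenph* did so by a hair, with 39.3 TPM in cell bodies replicate 2 and 39.2 TPM in protrusions replicate 1. The fractions of *Cenpn* and *Cenpt* overlapped, over 34.6 to 44.5 TPM and 24.4 to 32.1 TPM.

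**Figure D1:**
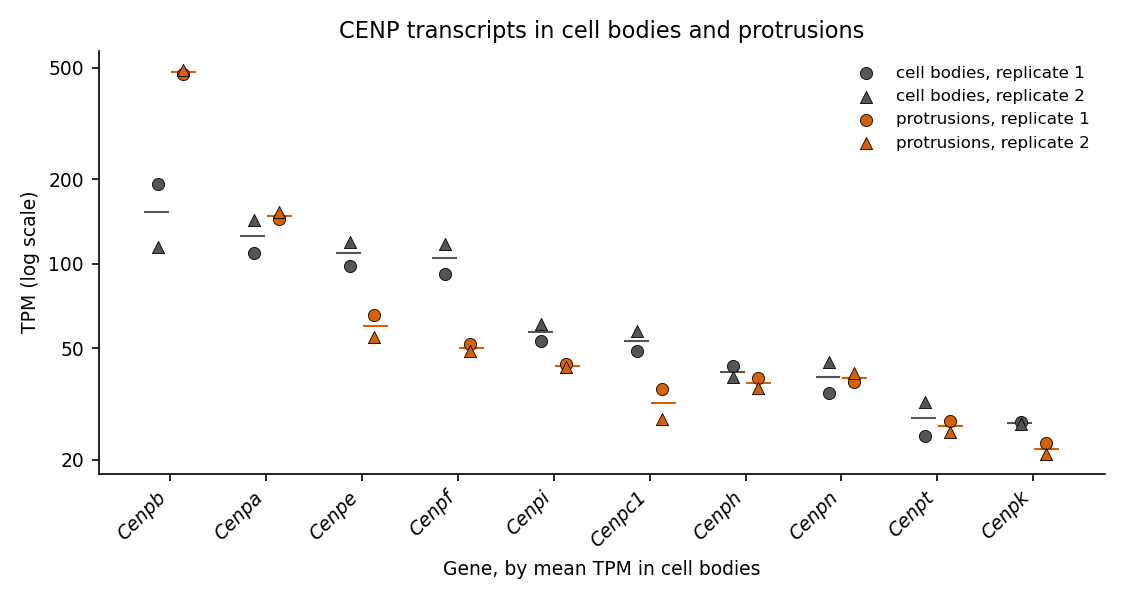
TPM (log scale) of the 10 CENP genes in each library, ordered by mean TPM in cell bodies, with cell bodies in gray, protrusions in orange, replicate 1 as circles, replicate 2 as triangles and group means as lines. The protrusion values of *Cenpb* (477 and 491 TPM) lie above all other points, and those of *Cenpe* and *Cenpf* lie below their cell body values.

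Of the 9 members other than *Cenpb*, 7 had a log2 fold change below 0, and the median of the 9 was -0.30, against -0.07 over all 11400 genes. *Cenpn*, at 0.00, stood above 56.9% of all genes tested. After a correction for GC content 5 of the 9 were below 0, since *Cenph* (0.11) and *Cenpk* (0.10) changed sign and the median moved to -0.12. The median over all genes was 0.02 after that correction. The fractions did not overlap for 8 of the 10, 6 of them lower and 2 higher in protrusions, where 37.0% of all genes tested did not overlap and were lower and 26.4% did not overlap and were higher. In the fit across all genes 1 of the 10, *Cenpb*, was called higher (2.99% of genes tested) and 2, *Cenpe* and *Cenpf*, were called lower (4.25%). With the replicate number as a block, *Cenpc1* joined those called lower, which made 3 (13.3% of genes tested), and 1 remained higher (8.08%). The members were selected on this contrast, so nothing is read from these counts. Leaving out any one of the 4 libraries left 0 members called. Leaving out either cell body library, or protrusions replicate 2, left no call in the whole table.

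*Cenpb* changed the makeup of the group. It made up 26.6% and 15.2% of the summed TPM of the 10 genes in cell bodies and 50.4% and 52.2% in protrusions. The other 9 together came to 530 and 641 TPM in cell bodies and 469 and 449 TPM in protrusions. By mean TPM in cell bodies the order was *Cenpb*, *Cenpa*, *Cenpe*, *Cenpf*, *Cenpi*, *Cenpc1*, *Cenph*, *Cenpn*, *Cenpt* and *Cenpk*. Within that order the libraries of neighbours did not overlap only between *Cenpf* and *Cenpi*, *Cenpc1* and *Cenph*, and *Cenpn* and *Cenpt*, so the lead of *Cenpb* in cell bodies lay within the spread of the libraries. *Cenpb* was first in cell bodies replicate 1, but in cell bodies replicate 2 it had rank 4, at 115 TPM behind *Cenpa* (143), *Cenpe* (119) and *Cenpf* (117). In protrusions *Cenpb* was again first, with *Cenpa*, *Cenpe*, *Cenpf* and *Cenpi* in the same places behind it, while *Cenpc1* went from sixth to eighth.

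The replicates gave fraction differences of the same sign for 8 of the 10 genes. *Cenpb* was above 0 in both, with log2 ratios of 1.31 in replicate 1 and 2.09 in replicate 2. *Cenpf* was below 0 in both, at -0.82 and -1.26, as were *Cenpe* at -0.58 and -1.12 and *Cenpc1* at -0.45 and -1.02. For each of these 4 genes the ratio was larger in size in replicate 2. *Cenpn* (0.12 and -0.12) and *Cenpt* (0.17 and -0.35) changed sign between replicates.

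**Figure D2:**
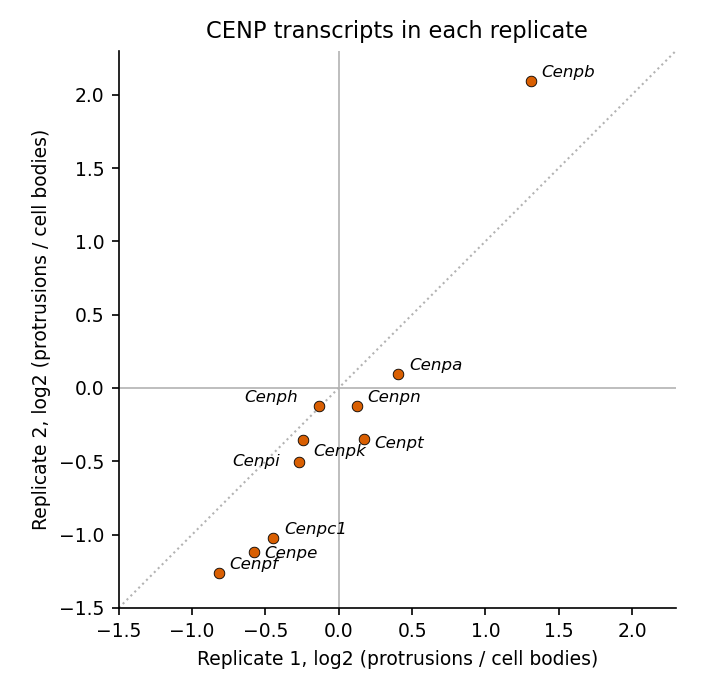
Log2 ratio of protrusions to cell bodies in replicate 1 (horizontal axis) and replicate 2 (vertical axis) for each of the 10 CENP genes, with equal ratios on the dotted line. *Cenpb* lies alone at the upper right (1.31 and 2.09), and *Cenpf*, *Cenpe* and *Cenpc1* lie at the lower left, below the line.

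The difference between replicates played no part in how the genes were picked, and it was tested in a fit that held the fraction constant. No member was called (limma, Benjamini-Hochberg adjusted p under 0.05), where 231 of the 11400 genes tested were (2.03%), and 0 of the 10 had an unadjusted p under 0.05. Limma voom on recovered reads also called none, with 1 at an unadjusted p under 0.05. The median size of the log2 difference was 0.13 over the 10 members and 0.13 over all genes. The largest was that of *Cenpb*, which was lower in replicate 2 by a log2 difference of -0.35 (SE 0.17, adjusted p = 0.552 from limma). This difference lay in the cell bodies, where replicate 2 was lower by -0.74 on the log2 scale, while the protrusions differed by 0.04.

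Other transcripts of the kinetochore leaned the same way as *Cenpe* and *Cenpf*, in lists that were chosen with earlier results of these data known. Across 5 lists of 41 genes (other CENP genes, CENP-A deposition, the outer kinetochore, the spindle checkpoint with the corona, and the chromosomal passengers with the shugoshins), 5 were lower in protrusions, 0 were higher and 36 did not pass (limma, Benjamini-Hochberg adjusted p under 0.05). Over all 11400 genes tested, 4.25% were lower and 2.99% were higher. The lists' median log2 fold change was -0.25, against -0.07 over all genes tested, and 33 of the 41 were below 0. Of all genes tested, 56.9% lay below *Cenpn*, which was at 0.00. After the GC correction, which 40 of them could enter, 27 were below 0, the median was -0.08 and 1 was called, *Spdl1*. Over the 11302 genes that could enter it, the median was then 0.02, with 408 called lower and 381 higher. With the replicate number as a block 14 were lower and 0 were higher, where 13.3% of all genes tested were lower and 8.08% were higher. With the GC correction and the block together, *Cenpw* was called higher (log2 fold change 0.48 after the correction). Over these lists and the 2 described below, that fit called 8 genes lower and 3 higher. Over its 11302 genes it called 1538 lower and 1465 higher. When either cell body library or either protrusion library was left out, 0 of the 41 were called. The nuclear noncoding RNA *Malat1* was at 1833 and 2781 TPM in cell bodies and 1368 and 1420 TPM in protrusions. Its log2 fold change was -0.70, and that of *Neat1*, another nuclear noncoding RNA, was -0.60. Neither was called without the block (adjusted p = 0.0874 and 0.187 from limma). With the block *Malat1* was called and *Neat1* was not (adjusted p = 0.00895 and 0.0657 from limma). The part of nuclear RNA in the result was not tested.

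In the outer kinetochore network, which binds microtubules directly, 2 of 10 were lower, where 4.25% of all genes tested were. *Ndc80*, the main microtubule coupler, fell from 99.6 ± 7.74 to 65.6 ± 4.11 TPM (SD, n = 2; log2 fold change -0.60, SE 0.12, adjusted p = 0.0477 from limma). *Casc5*, the table's symbol for the scaffold KNL1, fell by 0.86 on the log2 scale (SE 0.18, adjusted p = 0.0482 from limma).

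In the checkpoint and corona list, the layer that CENP-E and CENP-F themselves join, 1 of 10 was lower without the block and 6 with it, and the median was -0.46 (-0.24 after the GC correction). Of all genes tested, 4.25% were lower without the block and 13.3% with it. Their median was 0.02 after the GC correction. *Spdl1*, an adaptor that brings dynein to kinetochores, fell from 62.8 ± 3.87 to 33.2 ± 3.10 TPM (SD, n = 2; log2 fold change -0.91, SE 0.13, adjusted p = 0.0349 from limma). Among 6 passenger and shugoshin genes 1 was lower, *Sgol2*, a protector of centromeric cohesion, which fell by 0.71 on the log2 scale (SE 0.15, adjusted p = 0.0486 from limma). None of 11 other CENP genes was called, with the smallest p for *Cenpj* (log2 fold change -0.68, adjusted p = 0.0691 from limma) and *Cenpl* (-0.65, adjusted p = 0.0944 from limma). With the block these were called (adjusted p = 0.0309 and 0.0359 from limma), and they made up the 2 calls of that list. *Cenpj* carries a CENP name but encodes a centriole protein, and it is counted in the kinetochore totals given here.

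The relatives of *Cenpb* by descent from pogo-like transposases were near 0 or below it, apart from *Pogk* and *Tigd5*. Of 8 such genes 6 were tested, and 0 were called with or without the block. Their median log2 fold change was -0.19 (-0.02 after the GC correction, against 0.02 over all genes). The smallest p belonged to *Jrkl* (log2 fold change -0.53, adjusted p = 0.120 from limma) and *Pogk* (0.42, adjusted p = 0.128 from limma). With the GC correction and the block together, *Pogk* was called higher (log2 fold change 0.62 after the correction). So were 1465 of the 11302 genes in that fit. Whether these values differ from that of *Cenpb* was not tested.

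Genes of G2 and mitosis went both ways. Of 14, 1 was lower, 1 was higher and 12 did not pass, with a median of -0.26 (-0.14 after the GC correction), and with the block 6 were lower and 1 was higher. Over all genes tested, 4.25% were lower and 2.99% higher without the block, and 13.3% and 8.08% with it. The all-gene median was 0.02 after the GC correction. *Top2a*, the topoisomerase that untangles sister chromatids, fell from 511 ± 28.3 to 313 ± 30.6 TPM (SD, n = 2; log2 fold change -0.71, SE 0.12, adjusted p = 0.0382 from limma). *Foxm1*, a transcription factor that drives G2 and mitotic genes, *Cenpf* among them, rose from 31.8 ± 0.544 to 54.8 ± 1.23 TPM (SD, n = 2; log2 fold change 0.78, SE 0.12, adjusted p = 0.0349 from limma). Of the 7 genes called over all 7 lists, *Spdl1* and *Foxm1* were still called after the GC correction and the other 5 were not.

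**Figure D3:**
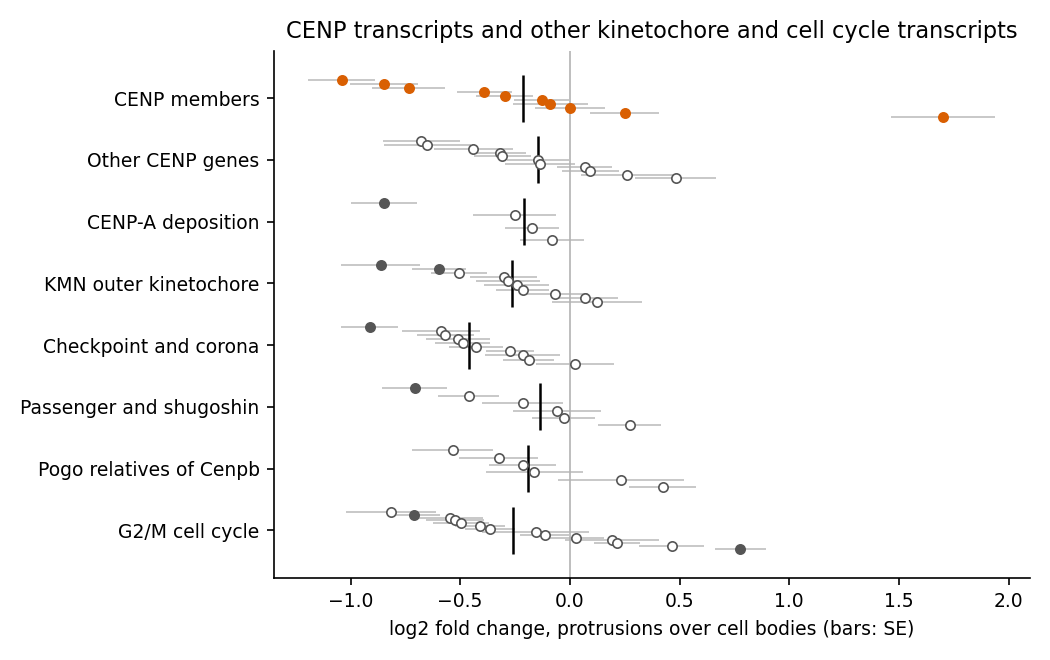
Log2 fold change between protrusions and cell bodies with its SE (bars) for the 10 CENP members (orange) and for 7 lists of other genes (gray), where filled gray points passed limma's test at an adjusted p under 0.05 and black ticks mark each list's median. *Cenpb* (1.7) lies beyond every other gene, and most kinetochore genes lie below 0.

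Transcript length and base composition went along with the fraction difference. The length behind TPM, recovered from the table, was 11122 bases for *Cenpf* and 7813 for *Cenpe*, the longest of the 10, and 1239 to 3191 bases for the others. Over the 9 members other than *Cenpb*, Spearman's rho between length and log2 fold change was -0.88, and over all 10 it was -0.73. The members were picked on this fold change, so these values only describe them. Over the 40 listed kinetochore genes with a GC value, a set that excludes the members, rho was -0.70, and over 11302 genes tested it was -0.02. Between GC content and log2 fold change, rho was 0.62 over the 9, 0.72 over the 10, 0.57 over the 40 and 0.38 over the 11302. Length and GC content had a rho of -0.53 over the 9. These are correlations across genes measured in the same 4 libraries, and genes are not independent replicates. After the GC correction, rho between length and log2 fold change over the 40 genes was -0.66. Of the 9 listed kinetochore genes of at least 4000 bases, all 9 were below 0, with a median of -0.65. Of the 15 under 2000 bases, 8 were below 0, with a median of -0.06. For comparison, 56.9% of all genes tested lay below *Cenpn* at 0.00.

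*Cenpb*, with a length of 2724 bases behind its TPM, was of middling length and did not lie on this trend. In GENCODE its transcript had 4886 bases, 1797 of them coding, so the model used for counting left out much of the annotated 3′ UTR. The GC content of that GENCODE transcript, 56.3%, was the highest of the 10, ahead of *Cenpt* at 54.8%, while *Cenpk* had the lowest at 36.3%. *Cenpf* and *Cenpe* were near 43%, at 43.3% and 42.9%. The GC correction uses these values, although GENCODE and counted lengths can differ, as for *Cenpb* and for *Cenpk* (1306 against 2192 bases). The coding part of *Cenpb* alone had 61.6% GC. GC content went with the fraction difference in the whole table: the median log2 fold change was -0.35 for genes under 40% GC and 0.17 for genes of at least 55%. With each library corrected for GC content, the log2 fold change was 1.60 for *Cenpb*, -0.78 for *Cenpf*, -0.59 for *Cenpe*, -0.42 for *Cenpc1* and 0.41 for *Cenpa*.

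**Figure D4:**
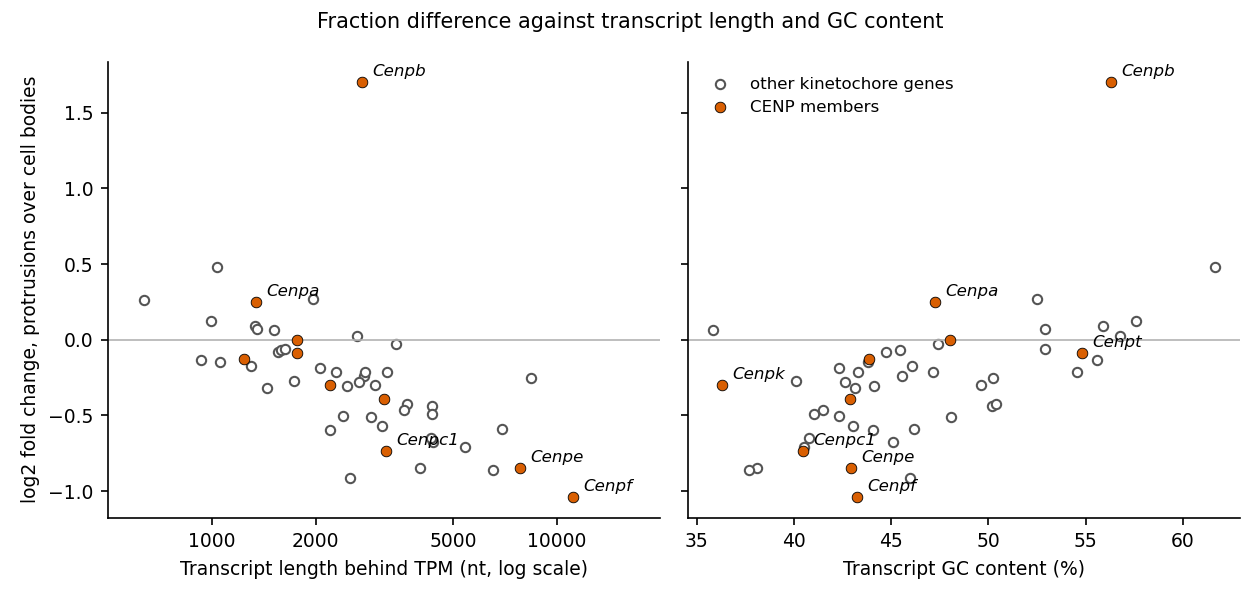
Log2 fold change between protrusions and cell bodies against the transcript length behind TPM (left, log scale, bases) and against transcript GC content (right, percent) for the 10 CENP members (orange) and the other kinetochore genes (open gray). Longer kinetochore transcripts lie lower, down to *Cenpf* (11122 bases, -1.04), and *Cenpb* (2724 bases, 1.7) lies apart.

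The promoters of the members were searched for 2 motifs of cell cycle genes, because *Cenpf* and *Cenpe* were picked as cell cycle-driven. RefSeq promoter windows of GRCm38.p6, of 250 bases before and 50 after each start site, matched all 10 members, with 3 windows for *Cenpk*. The letters TTTGAA, the core of the cell cycle homology region at which the DREAM complex acts, were found on either strand in 3 of the 10 genes and in 17.9% of all 32851 windows. The letters CCAAT, bound by NF-Y, were found on either strand in 8 of the 10 genes and in 37.4% of all windows. Neither motif was in the window of *Cenpb* or of *Cenpt*. *Cenpf*, *Cenpa* and *Cenpn* held both, and their TTTGAA matches (TTCAAA, on the opposite strand, in *Cenpn*) are shown with 12 bases on each side and the match in capitals, beside the CCAAT match of *Cenpe*, which had no TTTGAA. They lay at chr1:189688067-189688096 (minus strand), chr5:30666890-30666919 (plus strand), chr8:116921719-116921748 (plus strand) and chr3:135212539-135212567 (plus strand).
Cenpf: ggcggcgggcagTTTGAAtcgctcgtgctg
Cenpa: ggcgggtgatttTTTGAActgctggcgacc
Cenpn: gccattggcggcTTCAAAagcacctcggcg
Cenpe: acgctgcgccacCCAATccgctgcaacct
The members with a TTTGAA match thus ran from the lowest log2 fold change of the 10 (*Cenpf*, -1.04) through *Cenpn* (0.00) to *Cenpa* (0.25), the second highest. A match of these letters is not a shown binding site, and its absence says only that the letters are not in this window.

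The genes whose pattern over the 4 libraries was most like that of *Cenpb* were named by the smallest Euclidean distance between mean-centred log2(TPM + 0.5) values among the 11400 genes. They were *Eif3f*, a subunit of translation initiation factor 3 (distance 0.26), *Mta1*, a chromatin remodeler subunit (0.34), and *Cplx2*, a regulator of vesicle fusion (0.37). *Eif3f* was at 76.4 and 57.0 TPM in cell bodies and 194 and 202 TPM in protrusions. Its lowest value, like that of *Cenpb*, was in cell bodies replicate 2. The rule picks genes for such likeness, so this is not a separate result. The same rule gave *Cd80*, a costimulatory receptor ligand (0.01), *Tgoln2* (0.05) and *Tgoln1* (0.05) for *Cenpf*. *Tgoln1* and *Tgoln2* are close copies that may share reads, so they are uncertain as separate genes.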

How the data were processed

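Cell bodies and protrusions of YUMM1.7 cells were compared, with 2 libraries each. The authors deposited 1 table of TPM per gene and library, from strand-specific single reads of rRNA-depleted RNA aligned to mm10. The paper's methods name TopHat, while the submitters' processing notes name STAR and featureCounts, with FastQC and edgeR. The columns of the authors' own comparison (log2 fold change, likelihood ratio, p-value, FDR) were not used. The deposited mean log2 CPM served to recover whole reads from the ratios of TPM values, which came out whole within 0.01 for all 16537 genes.

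Models were fitted to log2(TPM + 0.5) in limma 3.58.1 under R 4.3.3, with a trended prior, over the 11400 genes whose mean TPM was 1 or more, without a block, with two-sided p-values adjusted by Benjamini-Hochberg at 0.05. A heading in the supplement pairs the fractions within each replicate, and deviations of same-numbered libraries correlated at 0.45 over 11400 genes. Same-numbered libraries were thus regarded as pairs, but the reported fit of the fraction difference leaves this pairing out. Its p-values and calls are unpaired unless the block is named. With the block, calls rose from 3 to 4 among members and from 7 to 21 among list genes. Over all genes tested, lower calls rose from 485 to 1513 and higher calls from 341 to 921. The scripts were tested on simulated data.

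The members and lists were chosen with earlier results of these data known. The text names all 10 members, the called genes of each list (at most 4, or the 2 with the smallest p where none was called) and the 3 genes nearest to *Cenpb* and to *Cenpf*. *Cenpw* is named for its call with the GC correction and the block together. The values of 1 called list gene and details of the cell line's genotype are not reported here, and counts of genes include that gene. GENCODE M21 (GRCm38) gave exons, GC content and coding sequence of the longest coding transcript; 15710 genes matched by symbol and 630 by a synonym. The length behind TPM was set by 396 of 457 single-exon genes, whose span equals it. The strand setting of the counting was not given in the sources used here; *Cenpk* overlaps *Ppwd1* on the opposite strand. The alternatives were other pseudocounts, no minimum TPM, equal library medians, the replicate block, a GC correction (loess), voom on recovered reads, and leaving out each library.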

Additional observations from a re-analysis of the deposited data

How the results depend on the processing

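The log2 fold change of *Cenpb* stayed between 1.60 and 1.78 over other pseudocounts, no minimum on TPM, equal library medians, the replicate block, the GC correction and voom, and between 1.33 and 2.07 when 1 library was left out. The number of members called by limma, 3 in the reported fit, was 3 or 4 with other pseudocounts, equal medians, the block, the GC correction or voom, 5 with the GC correction and the replicate block together, and 0 with no minimum on TPM or without any one library (0 to 0). With no minimum on TPM limma called 0 of 16537 genes, while 5 members and 27 list genes had an unadjusted p under 0.05; the cause was not tested. Of the list genes, 7 were called in the reported fit, 21 with the replicate block, 2 with the GC correction, 11 with the GC correction and the replicate block, 11 with voom, 0 with no minimum on TPM, and 0 to 1 when 1 library was left out. The block added *Cenpc1* and changed no other call among members. Calls over the whole table changed with the setting too. Limma called 493 genes higher and 567 lower with equal medians, and 777 and 889 with voom, of 11400. Of 11302 genes, it called 381 higher and 408 lower with the GC correction, and 1465 and 1538 with the block added to it. With 1 library left out, 4 or 5 members had an unadjusted p under 0.05, and the lone library of a fraction was assumed to vary like the others. The median of the 9 members other than *Cenpb* moved from -0.30 to -0.12 with the GC correction, with or without the block. Over all genes it moved from -0.07 to 0.02. No member was called between replicates under any alternative, and *Cenpb* was first by mean level in either fraction, with a rank of 1 to 4 in cell bodies when 1 cell body library was left out, an alternative chosen after seeing the data.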
